A study of Homo sapiens with 64 samples.

Results

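The comparison described here is formoterol added to budesonide for 2 h in BEAS-2B cells, an immortalised human bronchial epithelial cell line. Its arrays were chosen by their titles: 4 arrays of cells given budesonide and formoterol together for 2 h and 4 arrays of cells given budesonide for 2 h, which made 8 of the 64 arrays of the series. The combination held 100 nM budesonide and 10 nM formoterol, and the budesonide group held 100 nM budesonide with no formoterol. Cells given formoterol (10 nM) without budesonide and untreated cells, both at 2 h, were used to set the effect of formoterol with the glucocorticoid beside its effect without it, and the same drugs at 1, 6 and 18 h were used to follow it over time. All groups were kept in serum-free medium overnight before treatment, had 4 arrays each and came from 1 cell line, so cells from other people or from intact airway were not measured. Total RNA was hybridised to Affymetrix arrays, and each array was described by the submitters as an independent determination. The p-values measure the spread between arrays within groups, pooled over the 16 groups. They take no account of pairing unless a block for the replicate number is stated, although same-numbered arrays of the 2 groups compared varied together.

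Budesonide is an inhaled glucocorticoid: it binds the glucocorticoid receptor NR3C1, which then acts in the nucleus on genes with receptor binding sites and restrains many inflammatory genes. Formoterol is a long-acting agonist of the beta2-adrenoceptor, which couples through Gs to adenylyl cyclase, raises cyclic AMP and activates protein kinase A and its nuclear target CREB. The drugs are given together in asthma inhalers, and the airway epithelium is one of the tissues they reach. The comparison asks what the agonist changes when it is given together with the glucocorticoid.

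The values are log2 expression levels from RMA, and each gene is read from 1 probe set, so levels were compared between groups for the same gene and never between genes. A log2 difference here is the combination minus budesonide unless stated, and a gene was called when limma's moderated test, adjusted over 18132 genes by the Benjamini-Hochberg method, gave an adjusted p under 0.05. Array medians lay between 4.87 and 4.91 in the combination group and between 4.88 and 4.92 in the budesonide group. Over the whole table the median value was 4.90 and the lower quartile 3.02, and group means under the quartile were read as not told from background. Of 12 epithelial markers 8 had a mean at or above the overall median in both groups, and KRT18, a keratin of simple epithelia, had a mean of 11.09 in the combination and 11.19 with budesonide. None of the 7 leukocyte, 7 endothelial and 10 fibroblast or smooth muscle markers measured was called, and their mean level per array lay between 3.36 and 3.58, 3.89 and 4.16, and 4.83 and 4.87 in the combination, against 3.34 to 3.57, 3.93 to 4.11, and 4.76 to 4.86 with budesonide. In both groups 4, 2 and 3 of these markers had means below 3.02, and the highest were CD68, TIE1 and PDGFRB in the combination, at 5.84, 4.82 and 8.54, and CD68, TIE1 and COL1A1 with budesonide, at 5.68, 4.90 and 8.39. The beta-actin 3' signal exceeded its 5' signal by 1.44, 0.94, 1.61 and 1.11 in combination replicates 1 to 4, against 1.30, 0.76, 1.5 and 0.52 in budesonide replicates 1 to 4. It was thus higher in the combination for each replicate number and highest in replicate 3 of both groups. The same measure for GAPDH was 0.295, 0.188, 0.766 and 0.172 in the combination, against 0.353, 0.180, 0.563 and 0.097 with budesonide. It was lower in the combination for replicate 1 and higher for the other replicate numbers. Counts without the replicate 3 arrays are given below, and the part of RNA quality in the results was not otherwise tested.

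Formoterol changed a broad set of genes on top of budesonide within 2 h, and the larger changes ran mostly upward. The nuclear receptor genes NR4A1, NR4A2 and NR4A3, the phosphodiesterase PDE4D, the G-protein regulator RGS2, the non-coding RNA LINC00473 and the surface protein CD200 rose, and EGR1, HMGA2 and TXNIP fell. In all 794 genes were called, 4.38% of those tested, of which 514 (2.83%) were higher and 280 (1.54%) lower. At least 2-fold changes made up 125 of the higher genes (0.689% of those tested) and 9 of the lower (0.0496%). All 4 combination arrays lay above all 4 budesonide arrays for 4.15% of genes and below them for 2.96%, called or not. The median difference over all 18132 genes was 0.0046. In RNA from whole cultures a change in the number of cells that express a gene and a change per cell cannot be told apart. With a block for the replicate number over all times 1122 genes were called, 663 higher and 459 lower. With the block within each time 1532 were called, 853 higher and 679 lower. More genes passed over the whole set in these fits, so counts of list members with a block are to be read beside these numbers. With the replicate 3 arrays left out 616 were called.

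**Figure D1:**
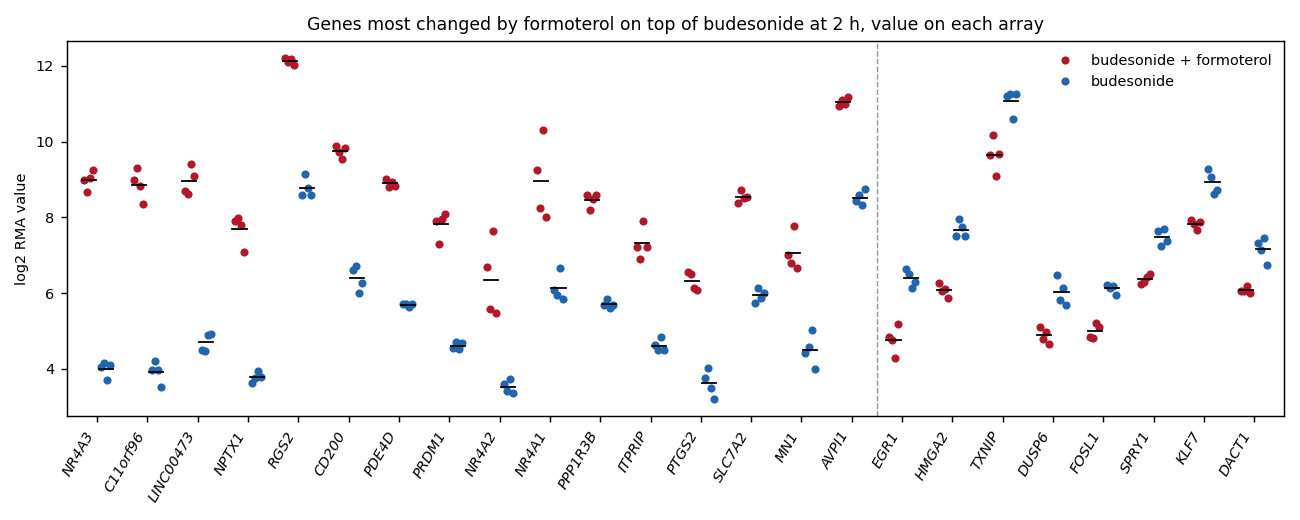
Log2 RMA value (y axis) on each of 4 combination arrays (red) and 4 budesonide arrays (blue) at 2 h for the 16 genes highest and 8 genes lowest by the naming rule, with bars at the group means. The groups did not overlap for any of the 24 genes, as the rule requires, and the combination arrays of NR4A1 and NR4A2 were spread more widely than those of RGS2 or PDE4D.

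The NR4A genes encode orphan nuclear receptors that are classical early targets of cyclic AMP and CREB. NR4A3 reached 8.99, 8.67, 9.04 and 9.25 on the combination arrays, against 4.05, 4.16, 3.70 and 4.11 on the budesonide arrays. All 4 combination arrays lay far above all 4 budesonide arrays, with a difference of 4.99 ± 0.16 (SE, n = 4 each, limma adjusted p = 3.91e-34) or 31.7-fold. NR4A1 reached 9.26, 8.24, 10.31 and 8.0 in the combination, against 6.07, 5.95, 6.67 and 5.83 with budesonide, a difference of 2.82 ± 0.31 (adjusted p = 2.83e-10 by limma). NR4A2 reached 6.70, 5.58, 7.64 and 5.48 in the combination, against 3.60, 3.41, 3.74 and 3.35 with budesonide, a difference of 2.83 ± 0.30 (adjusted p = 7.08e-11 by limma). For both of these genes replicate 3 was the highest array in each group and replicate 4 the lowest, while NR4A3 did not follow that order. The SDs in the combination and budesonide groups were 1.06 and 0.37 for NR4A1 and 1.02 and 0.18 for NR4A2. The SEs of both genes come from the spread pooled over all groups, so they do not show the wide spread of the combination arrays.

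Among the most raised genes, RGS2 and PDE4D encode proteins that act on G-protein and cyclic AMP signalling. RGS2, which speeds GTP hydrolysis by Gq and other G-protein subunits, reached 12.21, 12.12, 12.19 and 12.02 in the combination, against 8.58, 9.15, 8.79 and 8.60 with budesonide. The combination arrays lay close together and far above the budesonide arrays, and the difference was 3.35 ± 0.11 (adjusted p = 5.45e-34 by limma) or 10.2-fold. PDE4D, a phosphodiesterase that degrades cyclic AMP, reached 9.02, 8.81, 8.95 and 8.82 in the combination, against 5.70, 5.72, 5.63 and 5.71 with budesonide, a difference of 3.21 ± 0.14 (adjusted p = 3.53e-27 by limma). Its 7 probe sets gave differences between -0.03 and 3.21, so the value belongs to the transcripts that the chosen probe set reads. PDE4B, its paralogue, reached 3.22, 3.49, 3.83 and 4.07 in the combination, against 2.76, 2.48, 2.55 and 2.40 with budesonide, where its mean was not told from background, so the size of the difference, 1.10 ± 0.22, is uncertain. These were 2 of 13 cyclic nucleotide phosphodiesterases measured, and none of the other 11 was called, where 2.83% of all genes rose and 1.54% fell.

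The receptor and effector genes themselves moved little. Of 27 genes for cyclic AMP receptors, cyclases, kinases and anchors 2 rose and none fell, where 2.83% of all genes rose and 1.54% fell. The list median was 0.0006, and 6 rose with the replicate block within time. AKAP12, a scaffold that binds protein kinase A and the beta2-adrenoceptor, rose by 1.48 ± 0.11 with arrays between 11.21 and 11.57 in the combination and between 9.58 and 10.15 with budesonide. SIK2, a salt-inducible kinase that protein kinase A phosphorylates, rose by 0.88 ± 0.10 (adjusted p = 1.35e-09 by limma). RGS2 was the only one of 15 regulators of G-protein signalling that was called, and RGS3, at -0.28, passed only with a block for the replicate number (adjusted p = 0.0464 by limma, against 0.0866 without it).

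Other genes among those most raised have more varied roles. LINC00473, a primate-specific non-coding RNA induced by cyclic AMP, reached 8.68, 8.63, 9.41 and 9.08 in the combination, against 4.49, 4.48, 4.90 and 4.92 with budesonide, a difference of 4.25 ± 0.20 (adjusted p = 1.59e-25 by limma). CD200, a membrane glycoprotein that restrains myeloid cells through its receptor, reached 9.88, 9.72, 9.53 and 9.84 in the combination, against 6.60, 6.71, 6.0 and 6.28 with budesonide, a difference of 3.34 ± 0.18 (adjusted p = 2.71e-22 by limma). PRDM1, the transcriptional repressor known as Blimp-1, reached 7.92, 7.31, 7.95 and 8.10 in the combination, against 4.54, 4.71, 4.54 and 4.67 with budesonide, a difference of 3.20 ± 0.23. In each of these 3 genes all combination arrays stood clear above all budesonide arrays. PPP1R3B, which targets protein phosphatase 1 to glycogen, rose by 2.75 ± 0.13. ITPRIP, which modulates inositol trisphosphate receptors, rose by 2.70 ± 0.18, and MN1, a transcriptional coregulator, by 2.55 ± 0.23. AVPI1, named for its induction by vasopressin, rose by 2.53 ± 0.11, with adjusted p between 2.99e-26 and 1.4e-13 by limma for these 4 genes.

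The list of cyclic AMP and CREB-induced genes had the highest median of the 21 lists. It was drawn up with earlier results of these data known. NR4A1, NR4A2, NR4A3, LINC00473, PDE4D and PTGS2 are on it and also among the 16 most raised genes named. Of 22 members measured 15 rose and none fell, where 2.83% of all genes rose, and the list median was 0.95 against 0.0046 over all genes. BDNF, the brain-derived neurotrophic factor, rose by 1.85 ± 0.13, ATF3, a stress-responsive bZIP factor, by 1.66 ± 0.12, and the secretogranin SCG2 by 1.04 ± 0.18. GEM, a small GTPase of the RGK family, rose by 0.97 ± 0.19, STC1, the secreted glycoprotein stanniocalcin, by 0.94 ± 0.16 and NFIL3, a bZIP repressor, by 0.64 ± 0.10. Of the AP-1 genes, FOS had a difference of -0.01 ± 0.13 (adjusted p = 0.997) and FOSB of 0.0047 ± 0.10 (adjusted p = 0.997 by limma), with 95% intervals of -0.26 to 0.25 and -0.20 to 0.21. The 4 probe sets of FOS ran from -0.01 to 1.08, and their mean gave 0.42 (adjusted p = 0.00152 by limma), so its result turned on the probe set. Among the 15 that rose, CREM, which encodes cyclic AMP-responsive activators and repressors, lost the call without budesonide replicate 2, 3 or 4 or combination replicate 1 or 2 (adjusted p = 0.0697 to 0.163 by limma), and the coactivator PPARGC1A without budesonide replicate 1 or combination replicate 2 or 4 (0.0565 to 0.0641). The mean of the PPARGC1A probe sets, 0.12, did not pass either (adjusted p = 0.671 by limma), so its rise turned on the probe set.

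Promoter sequences are shown for the 4 highest and the 2 lowest genes by the naming rule that have an entry in the promoter table. HMGA2, which fell more than TXNIP, had no entry. CREB binds the cyclic AMP response element, and these letters let the sequence be read beside the change. Each is 250 bases before to 50 bases after the start of the gene in RefSeq on GRCh38.p14, 5' to 3' on the gene's strand, in lower case, with capitals at TGACG, the core of that element, or its reverse complement CGTCA. NR4A3 lies at chr9:99821635-99821934 on the plus strand, LINC00473 at chr6:165987990-165988289 on the minus strand, RGS2 at chr1:192808789-192809088 on the plus strand and CD200 at chr3:112332906-112333205 on the plus strand. EGR1, the most lowered gene, lies at chr5:138465229-138465528 on the plus strand and TXNIP, also lowered, at chr1:145996530-145996829 on the minus strand.
NR4A3: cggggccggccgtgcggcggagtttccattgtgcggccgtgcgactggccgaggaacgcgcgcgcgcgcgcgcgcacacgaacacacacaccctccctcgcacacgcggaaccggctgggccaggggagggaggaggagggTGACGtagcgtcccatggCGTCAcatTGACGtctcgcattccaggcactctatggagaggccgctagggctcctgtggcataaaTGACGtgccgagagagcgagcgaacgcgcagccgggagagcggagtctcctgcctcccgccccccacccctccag
LINC00473: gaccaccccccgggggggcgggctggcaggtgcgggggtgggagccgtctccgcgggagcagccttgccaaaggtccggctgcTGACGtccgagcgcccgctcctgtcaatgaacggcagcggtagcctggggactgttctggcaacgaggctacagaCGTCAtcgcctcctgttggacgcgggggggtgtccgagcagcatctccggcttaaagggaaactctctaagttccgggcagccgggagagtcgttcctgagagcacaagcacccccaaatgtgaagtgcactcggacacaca
RGS2: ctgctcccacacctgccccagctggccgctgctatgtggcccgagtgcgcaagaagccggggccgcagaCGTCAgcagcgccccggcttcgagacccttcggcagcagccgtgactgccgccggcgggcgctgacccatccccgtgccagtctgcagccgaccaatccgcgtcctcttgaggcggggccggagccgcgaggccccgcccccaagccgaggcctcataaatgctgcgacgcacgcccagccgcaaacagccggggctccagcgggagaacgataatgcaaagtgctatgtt
CD200: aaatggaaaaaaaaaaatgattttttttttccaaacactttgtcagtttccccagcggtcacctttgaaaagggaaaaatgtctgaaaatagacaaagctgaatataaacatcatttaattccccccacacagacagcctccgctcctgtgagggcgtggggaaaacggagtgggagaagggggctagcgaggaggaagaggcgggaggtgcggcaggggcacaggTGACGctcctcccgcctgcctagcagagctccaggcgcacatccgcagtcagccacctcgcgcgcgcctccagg
EGR1: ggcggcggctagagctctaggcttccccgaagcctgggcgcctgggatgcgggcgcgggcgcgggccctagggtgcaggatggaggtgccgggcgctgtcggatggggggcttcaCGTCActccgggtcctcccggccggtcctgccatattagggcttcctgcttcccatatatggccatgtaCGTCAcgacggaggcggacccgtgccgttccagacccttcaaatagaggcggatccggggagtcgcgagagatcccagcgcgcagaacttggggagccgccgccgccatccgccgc
TXNIP: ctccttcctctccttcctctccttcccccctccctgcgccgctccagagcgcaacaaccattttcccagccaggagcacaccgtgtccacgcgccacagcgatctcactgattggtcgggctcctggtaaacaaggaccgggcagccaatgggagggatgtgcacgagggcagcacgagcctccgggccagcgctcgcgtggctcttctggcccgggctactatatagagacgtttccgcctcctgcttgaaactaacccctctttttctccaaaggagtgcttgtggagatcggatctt
The core occurred 4 times in the NR4A3 window, 2 times in that of LINC00473, 1 time in those of RGS2 and CD200, 2 times in that of EGR1 and 0 times in that of TXNIP. Searched on both strands, TGACG was held by 37.7% of 401 promoters of genes called higher, by 30.1% of 239 promoters of genes called lower and by 29.7% of 14425 promoters of all measured genes that had an entry. The full element TGACGTCA, which contains the core on both strands, was held by 3.49%, 2.09% and 2.66% of the same promoters. The glucocorticoid response element was searched only as an exact palindrome, which was found in 0 of the 14425. It was found in 1 of all 27305 promoters available, so it was too rare to compare the sets of genes. Inexact forms and sites outside the windows were not searched, so the 0 does not show that receptor sites are absent. All these counts are matches of letters in short windows, and binding was not measured.

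Fewer genes fell by at least 2-fold, and 8 of the 9 met the naming rule. EGR1, an immediate early zinc-finger factor, stood at 4.83, 4.76, 4.29 and 5.18 in the combination, against 6.64, 6.49, 6.14 and 6.28 with budesonide. Every combination array was below every budesonide array, and the difference was -1.62 ± 0.19 (adjusted p = 3.04e-09 by limma). TXNIP, which binds thioredoxin and limits glucose uptake, stood at 9.64, 10.17, 9.08 and 9.69 in the combination, against 11.21, 11.27, 10.60 and 11.25 with budesonide, a difference of -1.44 ± 0.16. Replicate 3 was its lowest array in both groups. HMGA2, an architectural chromatin protein, stood at 6.26, 6.06, 6.12 and 5.87 in the combination, against 7.50, 7.95, 7.75 and 7.51 with budesonide, a difference of -1.60 ± 0.18. The probe sets of EGR1 and HMGA2 differed in direction, with 6 each between -1.62 and 0.09 for EGR1 and between -1.60 and 0.15 for HMGA2, while the 5 of TXNIP lay between -1.89 and -1.43.

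The other 5 lowered genes changed by a little over 2-fold. DUSP6, a phosphatase of the kinase ERK, fell by 1.15 ± 0.16 on the log2 scale, and SPRY1, a feedback inhibitor of receptor tyrosine kinases, fell by 1.12 ± 0.11. FOSL1, a partner of JUN in AP-1, fell by 1.13 ± 0.17. KLF7, a Kruppel-like factor, fell by 1.09 ± 0.12 and DACT1, a Dishevelled-binding regulator of Wnt signalling, by 1.09 ± 0.16. Adjusted p for these 5 genes lay between 4.32e-12 and 1.49e-06 by limma.

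**Figure D2:**
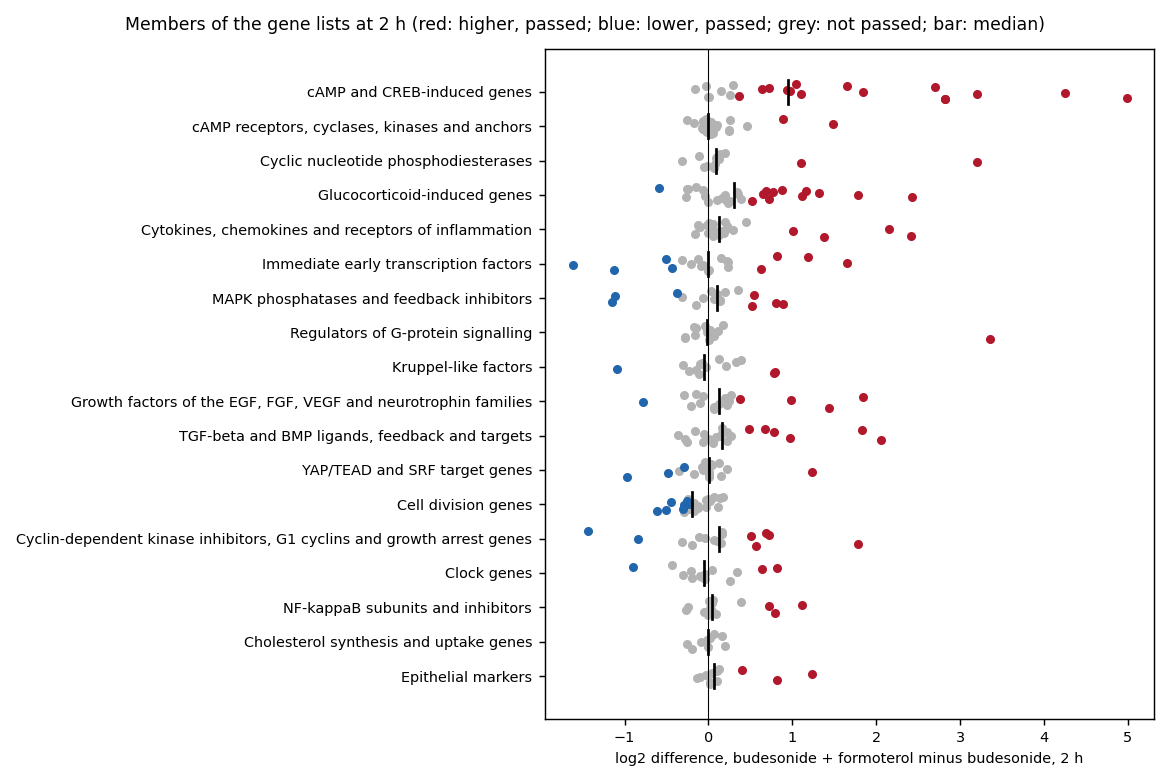
Log2 difference at 2 h (x axis, combination minus budesonide) of each measured member of 18 gene lists (rows), coloured by whether it passed limma's test, with black bars at the list medians. Cyclic AMP and CREB-induced genes have the highest median, 0.95, and cell division genes the lowest, -0.20.

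Some glucocorticoid-induced genes were higher still in the combination. Of 28 members 11 rose and 1 fell, where 2.83% of all genes rose and 1.54% fell, with a median of 0.30 against 0.0046 over all genes. With formoterol alone 11 were also higher and none lower, with a median of 0.20. With the replicate block 14 rose and 1 fell, and within time 14 rose and 2 fell. This list, like the others, was drawn up with earlier results of these data known. CDKN1C, the cyclin-dependent kinase inhibitor p57, reached 8.19, 8.62, 7.44 and 8.05 in the combination, against 6.25, 6.85, 5.97 and 6.09 with budesonide, a difference of 1.79 ± 0.25. The groups did not overlap, and replicate 3 was the lowest array in each. CEBPD, a bZIP transcription factor, rose by 1.17 ± 0.18, TNFAIP3, the ubiquitin-editing inhibitor of NF-kappaB known as A20, by 1.11 ± 0.15, and FOXO1, a forkhead factor, by 0.88 ± 0.12. Smaller rises were found for the thiamine transporter SLC19A2 (0.77 ± 0.13), the metallothionein MT1X (0.65 ± 0.15) and the kinase SGK1 (0.72 ± 0.12). DUSP1, the MAP kinase phosphatase MKP-1, rose by 0.51 ± 0.09 (adjusted p = 4.32e-05 by limma), but the mean of its probe sets, 0.39, did not pass (adjusted p = 0.639). BCL6, a transcriptional repressor, fell by 0.58 ± 0.10 on the log2 scale, and all 5 of its probe sets were lower in the combination. PDK4, which inhibits pyruvate dehydrogenase, and RGCC, a cell cycle regulator, were also called higher. PDK4 lost the call without budesonide replicate 3 or 4 or combination replicate 1 or 2 (adjusted p = 0.128 to 0.31 by limma), and RGCC without budesonide replicate 1 (adjusted p = 0.0619). The mean of the PDK4 probe sets, 0.66, did not pass either (adjusted p = 0.156 by limma).

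Some of the best-known glucocorticoid targets did not pass the test. TSC22D3, which encodes the leucine zipper protein GILZ, stood at 11.71, 11.73, 11.42 and 11.68 in the combination, against 11.38, 11.53, 11.29 and 11.40 with budesonide. The groups overlapped, and the difference was 0.24 ± 0.11 with a 95% interval of 0.02 to 0.45 (adjusted p = 0.34 by limma). FKBP5, a co-chaperone of the receptor, stood at 10.48, 10.84, 10.53 and 10.59 in the combination, against 10.46, 10.95, 10.55 and 10.49 with budesonide, with a 95% interval for the difference of -0.22 to 0.21. For the RNA-destabilising protein ZFP36 the interval was -0.29 to 0.20, and for the NF-kappaB inhibitor NFKBIA it was -0.55 to 0.03.

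The glucocorticoid-responsive genes were also taken from arrays outside the comparison, namely budesonide against untreated cells at 1 h, where 66 genes (0.364% of those tested) were called with a change of at least 2-fold. This choice was made after seeing the data. Over all genes, 2.83% were higher and 1.54% lower at 2 h when formoterol was added, and 2.31% and 2.29% with formoterol alone. Of the 55 raised by budesonide at 1 h, 22 were higher and 7 lower at 2 h when formoterol was added, with a median of 0.26, and 22 were higher and 6 lower with formoterol alone, with a median of 0.26. Of the 11 lowered by budesonide at 1 h, 7 were higher and 2 lower when formoterol was added, with a median of 0.62, and 6 were higher and 2 lower with formoterol alone, with a median of 0.94.

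Among 23 cytokine, chemokine and inflammatory receptor genes 4 rose and none fell, with a list median of 0.12, where 2.83% of all genes rose and 1.54% fell. IL24, at 0.45, passed only with the replicate block within time (adjusted p = 0.0455 by limma). IL11, a cytokine of the IL-6 family, reached 5.79, 5.15, 5.95 and 6.13 in the combination, against 3.42, 3.29, 3.15 and 3.49 with budesonide, a difference of 2.41 ± 0.20. IL6 reached 5.86, 5.47, 6.03 and 5.38 in the combination, against 4.66, 4.25, 4.21 and 4.12 with budesonide, a difference of 1.38 ± 0.19. The groups did not overlap for either gene. CXCL2, a neutrophil chemoattractant, rose by 2.15 ± 0.20 and CCL2, a monocyte chemoattractant, by 1.01 ± 0.16. CXCL8, another neutrophil chemoattractant, had a difference of 0.22 ± 0.18 with a 95% interval of -0.14 to 0.58, and LIF, of the IL-6 family, one of 0.05 ± 0.16 with an interval of -0.27 to 0.38. Of 15 NF-kappaB subunits and inhibitors 3 rose and none fell, and NFKBIE, at -0.25, passed only with the block within time (adjusted p = 0.0151 by limma). TNFAIP3 was given above, the subunit REL rose by 0.79 ± 0.18 and NFKBIZ, a nuclear coactivator of NF-kappaB, by 0.72 ± 0.12.

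Genes of the growth factor and MAP kinase responses moved both ways. Of 19 immediate early transcription factors 4 rose and 4 fell, where 2.83% of all genes rose and 1.54% fell. With the replicate block 5 rose and 5 fell, as MYC (0.23, adjusted p = 0.0183 by limma) and IER3 (-0.32, adjusted p = 0.0264) passed too. ATF3 rose and EGR1 and FOSL1 fell as given above, MAFF, a small Maf protein, rose by 1.19 ± 0.18, IER5, an immediate early response gene, fell by 0.50 ± 0.09 and JUN, the main AP-1 subunit, by 0.44 ± 0.10 on the log2 scale. Of 17 MAP kinase phosphatases and feedback inhibitors 4 rose and 3 fell, and with the block 5 rose and 4 fell, as ERRFI1 (0.36, adjusted p = 0.0428 by limma) and DUSP16 (-0.31, adjusted p = 0.0264) passed too. DUSP4 and DUSP5, nuclear phosphatases, rose by 0.89 ± 0.09 and 0.81 ± 0.14 and SPRY2 by 0.54 ± 0.12, while DUSP6, SPRY1 and SPRED1 fell, SPRED1 by 0.37 ± 0.08 on the log2 scale. Members of 1 family thus went in opposite directions, with SPRY2 higher and SPRY1 lower, and DUSP4 higher and DUSP6 lower.

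Of 17 growth factors measured 4 rose and 1 fell, where 2.83% of all genes rose and 1.54% fell. HBEGF, a ligand of the EGF receptor, rose by 1.44 ± 0.15, the angiogenic factor VEGFA by 0.98 ± 0.14 and the lymphangiogenic factor VEGFC by 0.37 ± 0.08, and BDNF was given above. FGF5 fell by 0.78 ± 0.17 on the log2 scale. Of 21 TGF-beta and BMP pathway genes 6 rose and none fell, against the same shares over all genes. BMP2, a bone morphogenetic protein, reached 5.17, 5.00, 5.92 and 3.77 in the combination, against 3.14, 2.96, 2.79 and 2.75 with budesonide. Its budesonide mean of 2.91 was not told from background, so the size of the difference, 2.05 ± 0.24, is uncertain, and replicate 4 was the lowest combination array. ID3 and ID1, inhibitors of differentiation that BMP signals induce, rose by 1.83 ± 0.12 and 0.79 ± 0.16, and GDF6, another BMP family ligand, by 0.97 ± 0.13, though the other of its 2 probe sets gave -0.02. NOG, a BMP antagonist, lost its call without budesonide replicate 3 (adjusted p = 0.0649 by limma). GREM1, also among the 6 that rose, did not pass with the mean of its probe sets, 0.29 (adjusted p = 0.104 by limma). With the block 7 rose and 1 fell.

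Cell division genes leaned downward. Of 24 members none rose and 7 fell, where 1.54% of all genes fell. With the replicate block 8 fell, 10 with the block within time, and 5 with the replicate 3 arrays left out. Over all genes 280 fell in the main fit, and 459, 679 and 177 in these settings. The list median was -0.20, and the changes were small: AURKA, the mitotic kinase Aurora A, stood at 10.22, 10.12, 10.32 and 10.20 in the combination, against 10.81, 10.81, 10.80 and 10.90 with budesonide. Its groups did not overlap, and the difference was -0.61 ± 0.06 (adjusted p = 2.78e-11 by limma). TTK, a spindle checkpoint kinase, fell by 0.44 ± 0.06 and CCNB1, cyclin B1, by 0.31 ± 0.07 on the log2 scale. The other 4 called members, PLK1, KIF11, NEK2 and KIF20A, each lost the call in some alternative setting. PLK1 lost it without budesonide replicate 1 or 4 or combination replicate 3 (adjusted p = 0.109 to 0.335 by limma), KIF11 without combination replicate 2 (adjusted p = 0.103), and KIF20A without budesonide replicate 3 or 4 or combination replicate 1 or 2 (adjusted p = 0.1 to 0.148). NEK2 lost it when the fit held just the 8 arrays compared (adjusted p = 0.0726). Of 16 cell cycle inhibitors, G1 cyclins and growth arrest genes 5 rose and 2 fell, where 2.83% of all genes rose and 1.54% fell. With the block 3 fell, as cyclin D1, CCND1, passed too (-0.31, adjusted p = 0.0432 by limma). TOB1, an antiproliferative protein, rose by 0.72 ± 0.13 and CDKN1A, the inhibitor p21, by 0.56 ± 0.11, and GADD45A, a stress-induced growth arrest gene, fell by 0.84 ± 0.09 on the log2 scale.

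The remaining lists held few calls by number, to be read beside the shares over all genes, 2.83% higher and 1.54% lower. With the replicate 3 arrays left out no count of higher or lower members changed by more than 1 in any list but the cell division genes. Of 19 YAP and SRF target genes 1 rose and 3 fell, with the Hippo kinase LATS2 higher by 1.24 ± 0.09 and the matricellular protein CCN1 lower, with a difference of -0.98 ± 0.08. With the replicate block 2 rose and 4 fell. Of 14 Kruppel-like factors 2 rose and 1 fell, and 4 rose with the block, with KLF3 higher by 0.78 ± 0.11 and KLF7 lower as above. Of 14 clock genes 2 rose and 1 fell, NFIL3 being one of those that rose, while PER1 stood at 0.26 ± 0.28 (95% interval -0.31 to 0.82, adjusted p = 0.921 by limma), and 3 rose and 3 fell with the block within time. None of 9 cholesterol genes was called, and MVK, mevalonate kinase, passed only with the block (-0.26, adjusted p = 0.0195 by limma). Of the 12 epithelial markers 3 rose: the tight junction protein CLDN1 by 1.23 ± 0.16, the keratin KRT7 by 0.81 ± 0.18 and the junction scaffold TJP1 by 0.40 ± 0.09. Called members that lost the call without 1 array were VCL without budesonide replicate 2 or 3 or combination replicate 4 (adjusted p = 0.106 to 0.13 by limma), KLF4 without budesonide replicate 2 or 4 or combination replicate 1 or 3 (0.152 to 0.299) and BHLHE40, also on the immediate early list, without budesonide replicate 1, 2 or 4 or combination replicate 1 or 3 (0.0598 to 0.39). The mean of the 12 epithelial markers per array lay between 6.96 and 7.08 in the combination, against 6.73 to 6.93 with budesonide.

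The effect of formoterol was also measured without budesonide, on 4 formoterol and 4 untreated arrays that the comparison above does not use. There 834 genes were called, 4.6% of those tested, 419 higher (2.31%) and 415 lower (2.29%), and 1637 were called with the replicate block within time. The genes called higher in both numbered 301, which was 58.6% of those higher with budesonide present and 71.8% of those higher without it. The genes called lower in both numbered 193, 68.9% and 46.5% of the lists with and without budesonide. The 4 genes called in opposite directions, named after their values were seen, were BCL6, DSEL, LPIN1 and TRIB2. BCL6 fell with budesonide present and had a difference of 0.65 ± 0.10 without it (adjusted p = 1.03e-06 by limma). DSEL, an enzyme of dermatan sulfate synthesis, the phosphatidate phosphatase LPIN1 and the pseudokinase TRIB2 rose by 0.37 to 0.67 with budesonide present and had differences between -0.45 and -0.39 without it. Across all 18132 genes, which are not independent replicates, the differences with and without budesonide correlated with r = 0.689. The cyclic AMP and CREB-induced list had 15 members higher with budesonide present and 16 without it, and the cell division list had 7 and 12 lower.

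**Figure D3:**
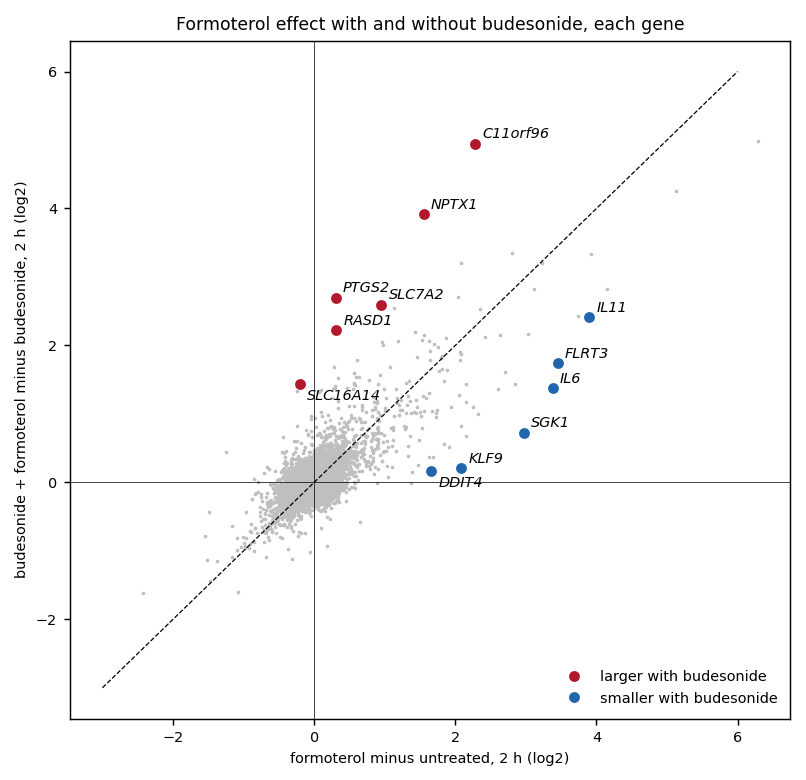
Log2 effect of formoterol at 2 h with budesonide present (y axis) and without it (x axis) for each of 18132 genes, with the line of equal effect dashed. The 6 genes whose effect was higher with budesonide by the naming rule (red) lie above the line, and the 6 whose effect was lower (blue) lie below it.

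Whether the effect of formoterol differed with budesonide was tested as an interaction, the difference with budesonide minus the difference without it. The test called 107 genes, 0.59% of those tested, 65 above (0.358%) and 42 below 0 (0.232%), and 162 or 229 genes with the replicate block over all times or within time. Both effects enter this test, so it shares the 8 arrays of the main comparison. On a linear scale, where additive effects would give 0, 106 of the 107 genes kept their sign.

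The 6 genes with the most positive interaction were raised by formoterol on top of budesonide, by between 1.44 and 4.95, and had differences between -0.20 and 2.28 with formoterol alone. PTGS2, the inducible cyclooxygenase COX-2, reached 6.56, 6.50, 6.13 and 6.08 in the combination, 3.77, 4.03, 3.48 and 3.20 with budesonide, 3.15, 3.06, 3.01 and 2.18 with formoterol and 2.61, 2.59, 2.59 and 2.39 in untreated cells. The combination arrays stood clear above those of the other 3 groups, and the means of the formoterol and untreated groups were not told from background. The difference was 2.70 ± 0.21 with budesonide and 0.30 ± 0.21 (adjusted p = 0.655) without it, and the interaction was 2.39 ± 0.29 (adjusted p = 7.59e-08 by limma). The sizes of the difference without budesonide and of the interaction are therefore uncertain, and its 3 probe sets gave interactions between 0.22 and 2.39. C11orf96 reached 8.99, 9.32, 8.82 and 8.35 in the combination, 3.97, 4.22, 3.97 and 3.53 with budesonide, 5.21, 6.13, 6.45 and 5.06 with formoterol and 3.43, 3.42, 3.43 and 3.46 in untreated cells. Formoterol raised it 30.8-fold with budesonide and 4.85-fold without it, an interaction of 2.67 ± 0.35 (adjusted p = 3.17e-07 by limma). RASD1, a Ras-like GTPase first described as induced by dexamethasone, reached 6.21, 5.76, 6.10 and 5.42 in the combination but lay between 3.46 and 4.10 on every array of the other 3 groups at 2 h, an interaction of 1.91 ± 0.22.

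The other 3 genes with the largest positive interaction behaved in a related manner. NPTX1, the secreted neuronal pentraxin 1, was changed by 3.91 ± 0.23 with budesonide and 1.55 ± 0.23 without it, with an interaction of 2.36 ± 0.33 that its other probe set, at 0.04, did not show. SLC7A2, a cationic amino acid transporter, was changed by 2.59 ± 0.15 and 0.95 ± 0.15, with an interaction of 1.64 ± 0.21, and its 4 probe sets gave interactions between -0.18 and 1.98. SLC16A14, of the monocarboxylate transporter family, was changed by 1.44 ± 0.19 with budesonide and had a difference of -0.20 ± 0.19 without it, with an interaction of 1.64 ± 0.27.

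Among the 6 genes with the most negative interaction, SGK1, KLF9 and DDIT4 were raised by budesonide alone, by 2.29 ± 0.12, 3.67 ± 0.14 and 3.20 ± 0.15. SGK1, a serum- and glucocorticoid-regulated kinase, reached 12.05, 11.69, 12.29 and 11.92 in the combination, 11.35, 11.14, 11.44 and 11.11 with budesonide, 12.02, 11.67, 12.41 and 11.71 with formoterol and 8.71, 9.10, 9.13 and 8.96 in untreated cells. The combination and formoterol arrays overlapped, and the interaction was -2.25 ± 0.16 (adjusted p = 1.64e-15 by limma). KLF9, a Kruppel-like repressor, reached 11.03, 10.78, 10.88 and 10.80 in the combination, 10.85, 10.65, 10.60 and 10.54 with budesonide, 9.03, 9.12, 9.26 and 8.90 with formoterol and 6.95, 6.86, 7.18 and 7.0 in untreated cells. Its difference was 0.21 ± 0.14 with budesonide (95% interval -0.07 to 0.49, adjusted p = 0.714) and 2.08 ± 0.14 without it, with an interaction of -1.87 ± 0.20, but its 4 probe sets gave interactions between -1.87 and 0.0003. DDIT4, an inhibitor of mTORC1 signalling, had a difference of 0.16 ± 0.15 with budesonide (95% interval -0.14 to 0.47, adjusted p = 0.883 by limma) and 1.66 ± 0.15 without it, with an interaction of -1.5 ± 0.22.

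IL6 and IL11 were lowered by budesonide alone, with differences of -1.62 ± 0.19 and -2.20 ± 0.20. IL6 had values of 5.86, 5.47, 6.03 and 5.38 in the combination, 4.66, 4.25, 4.21 and 4.12 with budesonide, 9.65, 9.10, 9.88 and 8.63 with formoterol and 5.90, 6.14, 5.93 and 5.75 in untreated cells. The combination arrays overlapped the untreated arrays and lay below all formoterol arrays, and the effect of formoterol was 1.38 ± 0.19 with budesonide and 3.38 ± 0.19 without it, an interaction of -2.0 ± 0.27 (adjusted p = 9.7e-07 by limma). The other of its 2 probe sets gave an interaction of -0.49. IL11 had a mean of 5.75 in the combination, 3.34 with budesonide, 9.44 with formoterol and 5.54 in untreated cells, and an interaction of -1.48 ± 0.29 (adjusted p = 0.00119 by limma), with its 3 probe sets between -2.33 and -1.48. FLRT3, a leucine-rich repeat adhesion protein, had an effect of 1.74 ± 0.21 with budesonide and an interaction of -1.72 ± 0.30, with its 3 probe sets between -1.72 and -0.76. Among genes raised in both settings, NR4A3 had a smaller effect with budesonide (interaction -1.30 ± 0.22, adjusted p = 0.000123 by limma), and PPP1R3B a larger one (1.55 ± 0.19, adjusted p = 4.44e-08). For PDE4D the interaction was -0.02 ± 0.19 and for AVPI1 0.18 ± 0.16, and neither passed. Of the glucocorticoid-induced list 5 of 28 members were called in the interaction, all 5 below 0, where 0.232% of all genes were called below 0. They include SGK1, KLF9 and DDIT4, already given above, and the list was drawn up with earlier results of these data known.

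**Figure D4:**
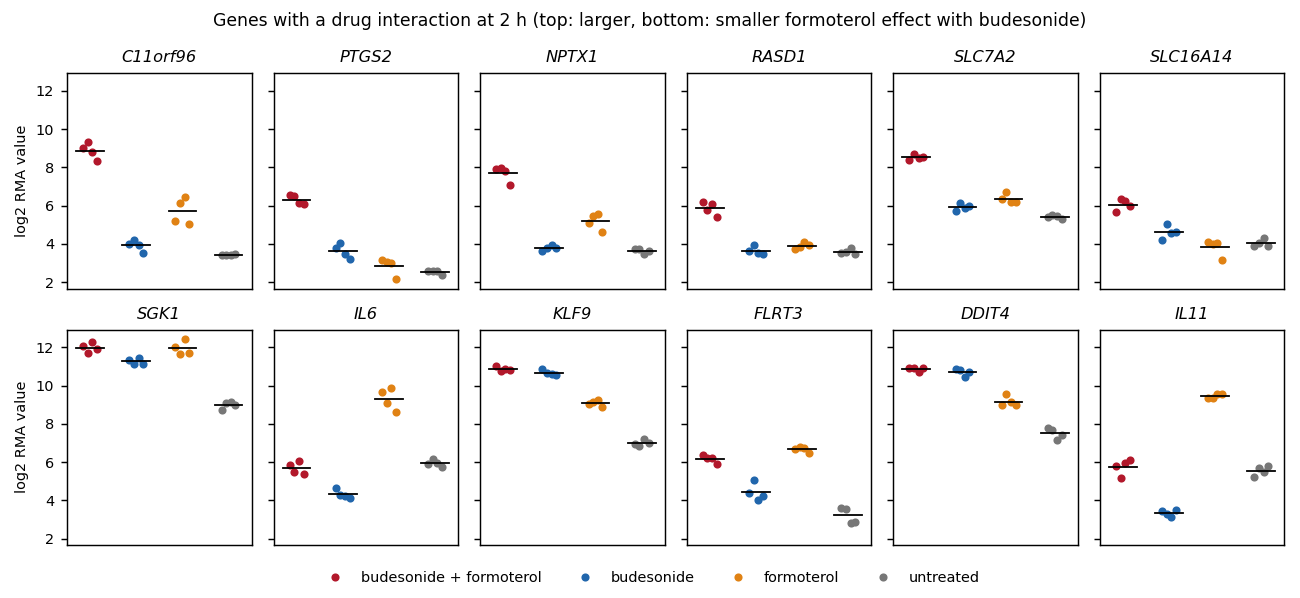
Log2 RMA value (y axis) on each array at 2 h for the 12 genes with the largest interaction by the naming rule, with the combination, budesonide, formoterol and untreated groups from left to right and bars at the means. In the top row the combination stands above the other groups, and in the bottom row the budesonide and combination groups lie closer together than the untreated and formoterol groups.

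Genes that both drugs changed were set side by side. Budesonide against untreated cells shares the 4 budesonide arrays with the main comparison, so the differences are not independent. Budesonide alone called 715 genes at 2 h, 3.94% of those tested, and 0.8% with a change of at least 2-fold. Among genes called and changed at least 2-fold in both comparisons, 23 went in the same direction and 11 in opposite directions. CRISPLD2, a secreted protein with an LCCL domain, reached 9.76, 10.38, 9.94 and 9.96 in the combination, against 7.21, 8.25, 7.49 and 7.40 with budesonide, a difference of 2.42 ± 0.27 on top of a budesonide effect of 2.12 ± 0.27. FLVCR2, a membrane transporter, rose by 2.07 ± 0.20 with formoterol added, HAS3, a hyaluronan synthase, by 2.01 ± 0.21, PLAT, the tissue plasminogen activator, by 1.54 ± 0.12, and PLPP3, a lipid phosphate phosphatase, by 1.44 ± 0.14. PLAT reached 11.75, 11.80, 11.94 and 11.61 in the combination, against 10.16, 10.55, 10.39 and 9.85 with budesonide, and its groups did not overlap. The probe sets of CRISPLD2 and HAS3 included one each near 0, at -0.01 and -0.10. The means with formoterol alone and in untreated cells were 9.20 and 5.47 for CRISPLD2 and 9.97 and 7.12 for PLPP3. For both genes the formoterol difference was thus larger without budesonide, and PLPP3 had a mean of 10.04 in the combination. The same means were 6.07 and 4.88 for FLVCR2, 5.32 and 4.35 for HAS3 and 9.24 and 8.61 for PLAT, a smaller difference without budesonide.

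In the opposite direction, genes lowered by budesonide were raised when formoterol was added. EFNA1, an ephrin ligand, stood at 7.46, 7.30, 7.43 and 8.01 in the combination, against 5.91, 5.72, 6.07 and 6.57 with budesonide, a difference of 1.48 ± 0.19. The untreated arrays, between 7.52 and 7.98, overlapped the combination arrays. SOCS3, a feedback inhibitor of cytokine receptors, rose by 1.43 ± 0.23 and TENT5A, a non-canonical poly(A) polymerase, by 1.42 ± 0.12, beside IL6 and IL11, and one probe set of SOCS3 gave -0.05. SPRY1 was the reverse, with values of 6.25, 6.29, 6.44 and 6.52 in the combination, against 7.65, 7.24, 7.69 and 7.38 with budesonide and 6.29, 6.32, 6.42 and 6.33 in untreated cells. Its combination and untreated arrays overlapped.

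Formoterol added to budesonide called 267 genes at 1 h (1.47%, or 1.2% higher and 0.276% lower), 794 at 2 h, 1218 at 6 h (6.72%, or 3.91% higher and 2.81% lower) and 118 at 18 h (0.651%, or 0.303% higher), and 437, 1532, 2587 and 665 with the replicate block within time. Of the 514 genes higher at 2 h, 192 were also higher at 1 h, which was 37.4% of the 2 h list and 88.5% of the 1 h list. At 6 h 243 were also higher, 47.3% of the 2 h list and 34.3% of the 6 h list, and at 18 h 12 were, 2.3% and 21.8%. Of the 280 genes lower at 2 h, 38 were also lower at 1 h, 52 at 6 h and 2 at 18 h. Of the 794 genes called at 2 h, 0 were called in the opposite direction at 1 h, 9 at 6 h and 6 at 18 h. These comparisons share no arrays.

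The difference between times was tested directly. The change at 2 h differed from that at 1 h for 54 genes (0.298%) and from that at 6 h for 453 genes (2.5%). NR4A3, NR4A1, IL11 and C11orf96 had larger differences at 2 h than at 6 h: the change of NR4A3 was 3.90, 4.99, 1.17 and -0.12 at 1, 2, 6 and 18 h, that of NR4A1 was 2.96, 2.82, -0.07 and -0.02, and that of IL11 was 2.46, 2.41, -0.43 and -0.14. C11orf96 still had means of 5.51 in the combination and 3.78 with budesonide at 6 h, and of 4.77 and 3.78 at 18 h. Its groups did not overlap at either time. TXNIP and DUSP6 were lower at 1 and 2 h, and their differences at 6 h were 0.10 and 0.40, neither of which passed. PID1, an adaptor linked to insulin signalling, had 0.02, 0.49, 2.58 and 0.85, so its change at 2 h was the smaller one, and its call at 2 h was lost without budesonide replicate 1 or 4 or combination replicate 2 or 4 (adjusted p = 0.0783 to 0.325 by limma).

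Between 1 and 2 h the change grew for some genes and shrank for others. NPTX1 had changes of 1.08, 3.91, 4.20 and 0.36 at 1, 2, 6 and 18 h and SLC7A2 of 0.82, 2.59, 2.22 and 0.03, and both were larger at 2 h than at 1 h. ST3GAL1, a sialyltransferase, had 0.22 at 1 h and 1.60 at 2 h, and SOCS3 had -0.15 and 1.43. HMGA2 had -0.17 at 1 h (adjusted p = 1) and -1.60 at 2 h. The chemokine CXCL2 had 4.0 at 1 h, 2.15 at 2 h and 0.04 at 6 h, and IL6 had 2.93, 1.38 and 0.29. CH25H, cholesterol 25-hydroxylase, had 2.03 at 1 h and 0.92 at 2 h, and its budesonide means of 2.20 at 1 h and 2.24 at 2 h were not told from background, so the sizes of both changes and of their difference are uncertain. Its difference between the times lost the call without combination replicate 3 at 1 h or replicate 4 at 2 h (adjusted p = 0.0814 and 0.0828 by limma). RGS2 was raised at all 4 times, by 3.53, 3.35, 2.38 and 1.07.

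**Figure D5:**
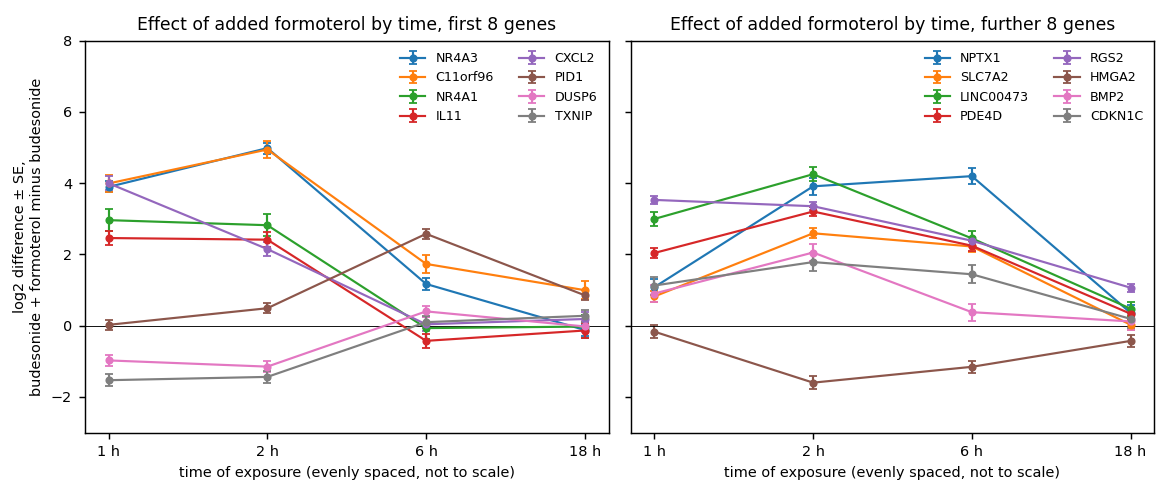
Log2 effect of formoterol added to budesonide (y axis, difference ± SE, 4 arrays a group) at 1, 2, 6 and 18 h (x axis, evenly spaced) for 16 genes. NR4A1, IL11 and CXCL2 are near 0 by 6 h, NPTX1, SLC7A2 and PDE4D are still raised there, and RGS2 stays raised at 18 h.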

How the data were processed

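The series holds 64 Affymetrix arrays with 1 colour, in 16 groups of 4. The authors deposited log2 values per probe set, made by RMA per the submitters' processing notes; its version, and whether all arrays were normalized together, are not given in the sources used here. By the platform annotation 44994 of the 49395 probe sets name a single gene and were kept, while 1832 name several and 2569 none. For each of the 18132 genes the brightest probe set by mean over the 64 arrays was read, and 11735 genes had more than 1 to choose from.

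One limma 3.58.1 model (R 4.3.3, data.table package at version 1.17.8) with a mean for each of the 16 groups, 48 residual degrees of freedom and an intensity trend gave every contrast, with two-sided p-values adjusted by Benjamini-Hochberg over all genes. The steps were also run on simulated data with independent noise on each array. That run did not cover the variation that same-numbered arrays share. Figures were made with matplotlib 3.10.9 and pandas 2.3.3 in Python 3.11.15. The files hold no detection calls, and precision is limited by how few arrays a group has. The median 95% interval reached 0.23 on either side of a difference.

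The genes named were the 16 highest and up to 12 lowest changes among called genes of at least 2-fold with a group mean at or above 4.90 and no overlap of the groups. The 6 highest and 6 lowest interactions were added, 6 genes changed with and 6 against budesonide, and the 4 highest and 4 lowest differences between 2 h and 6 h and between 2 h and 1 h. Members of 21 gene lists were named too. The genes, lists and comparisons were chosen with earlier results of these data known. Replicate numbers come from the sample titles. Same-numbered arrays of the combination and budesonide groups at 2 h deviated from their group means together, with correlations over genes between 0.32 and 0.47 in all 4 pairs, so the numbers were taken to pair the arrays, and fits with the number as a block are given where they move a result. The alternatives were this block, other sets of arrays in the fit, other normalizations, filters and probe set choices, no intensity trend, and each array left out in turn. Promoter sequences are from RefSeq on GRCh38.p14.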

Additional observations from a re-analysis of the deposited data

Results flagged for a closer look

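The effect of formoterol added to budesonide differed between times in a direct test for the genes below, each given as the change at 2 h minus the change at the other time, with its SE and limma adjusted p. Against 6 h the difference was 3.81 ± 0.22 for NR4A3 (adjusted p = 2.84e-20), 3.21 ± 0.35 for C11orf96 (adjusted p = 1.05e-09), 2.89 ± 0.44 for NR4A1 (adjusted p = 6.96e-06) and 2.84 ± 0.29 for IL11 (adjusted p = 1.14e-10). It was -2.09 ± 0.20 for PID1 (adjusted p = 2.1e-11), -1.55 ± 0.23 for DUSP6 (adjusted p = 4.6e-06), -1.54 ± 0.23 for TXNIP (adjusted p = 4.6e-06) and -1.33 ± 0.18 for ARRDC4, an alpha-arrestin (adjusted p = 2.41e-07). Against 1 h it was 2.83 ± 0.33 for NPTX1 (adjusted p = 4.44e-08), 1.77 ± 0.21 for SLC7A2 (adjusted p = 4.44e-08), 1.58 ± 0.33 for SOCS3 (adjusted p = 0.00634) and 1.38 ± 0.22 for ST3GAL1 (adjusted p = 8.98e-05). It was -1.85 ± 0.28 for CXCL2 (adjusted p = 3.19e-05), -1.55 ± 0.27 for IL6 (adjusted p = 0.000435), -1.43 ± 0.25 for HMGA2 (adjusted p = 0.000435) and -1.11 ± 0.24 for CH25H (adjusted p = 0.0117), whose budesonide means at both times were not told from background.

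In 10 of the 242 groups of 4 arrays checked, 1 array stood apart from the other 3, where chance gives about 1 in 20. In the combination, replicate 3 stood apart for DDIT4 (10.70, against 10.91 to 10.93 on the others), TSC22D3 (11.42, against 11.68 to 11.73) and NFIL3 (9.46, against 9.09 to 9.14). Combination replicate 2 stood apart for LIF (5.12, against 5.74 to 5.81) and KIF11 (9.81, against 10.05 to 10.09). With budesonide, replicate 3 stood apart for TXNIP (10.60, against 11.21 to 11.27) and CDKN1A (9.84, against 10.07 to 10.09), replicate 1 for TENT5A (6.94, against 6.49 to 6.55), replicate 2 for FOS (5.91, against 5.46 to 5.52) and replicate 4 for AURKA (10.90, against 10.80 to 10.81). No cause was tested.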

How the results depend on the processing

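The main comparison called between 673 and 728 genes when single arrays were left out, 1532 with the replicate block within time and 501 with only its own 8 arrays in the fit. In the same order, formoterol alone gave 664 to 813, 1637 and 470 calls (307 higher and 163 lower with only its own arrays), and budesonide alone at 2 h 559 to 674, 1379 (446 higher and 933 lower) and 436 (241 higher and 195 lower). The interaction gave 82 to 110, 229 and 65, with 162 under the replicate block over all times, 65 with only the 2 h arrays, and 44 above and 48 below 0 without formoterol replicate 4. Added formoterol gave 210 to 248 calls at 1 h, 971 to 1116 at 6 h and 76 to 115 at 18 h. With the replicate block it gave 437 at 1 h within time, 1886 at 6 h and 2587 within time, and 359 at 18 h and 665 within time. At 18 h 76 and 77 genes were called without budesonide replicates 2 and 4, and 184 with only those 8 arrays. The difference of 2 h from 1 h gave 43 to 75 calls, 143 and 246 with the block and within time, and 26 with only its own arrays. That from 6 h gave 392 to 443, 822 and 1292, that from 18 h 467 to 523, 890 and 1348, and budesonide at 1 h 143 to 179 and 312 (167 higher and 145 lower) within time. Without the replicate 3 arrays, a choice made after seeing the data, the counts at 2 h were 616 for added formoterol, 684 for formoterol alone, 73 for the interaction and 558 for budesonide. Of 149 gene results 122 kept direction and call under all alternatives. FOS, at -0.01, stood at 0.42 with the mean of all probe sets. Between 2 h and 1 h, SOCS3 and CH25H lost their calls with only the arrays compared (adjusted p = 0.107 and 0.612 by limma) and IL6 and HMGA2 with the mean of probe sets (0.0515 and 1). The block moved KLF15 (adjusted p = 0.0360), ERRFI1 and MKI67 past the threshold in limma. RGCC lost its call without budesonide replicate 1 (adjusted p = 0.0619 by limma). The causes were not tested.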
